A study of Mus musculus with 4 samples.

Results

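The genes described here are 10 immediate early genes of mouse RAW264.7 cells, a macrophage-like tumour line: Egr1, Egr2, Egr3, Nr4a1, Ier2, Ier3, Klf2, Klf4, Klf6 and Myc. They were taken by symbol, as every non-control probe whose gene name on the array was 1 of the 10. This gave 14 probes, against 56605 probes and 37074 gene names in all. Cy3-labelled copies of total RNA were hybridised to 1-colour Agilent arrays, on which each probe is a spot of 60 bases whose brightness follows the amount of its RNA. There were 4 groups with 1 array each: Mfp2-/- cells given lipopolysaccharide (LPS), wild type cells given LPS, Mfp2-/- cells left untreated, and wild type (naive) cells left untreated. Mfp2 is another name of Hsd17b4, which encodes a peroxisomal enzyme of fatty acid oxidation. LPS is a component of the outer membrane of bacteria that macrophages sense through Toll-like receptor 4. The labels give no LPS dose or time, and do not say how the knockout was made or whether it is 1 clone. With 1 array a group, no difference below has a replicate check, and none between single arrays is given a p-value.

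Immediate early genes are transcribed soon after a stimulus without new protein synthesis, from promoters served by serum response factor, ETS and CREB proteins that ERK and other kinases switch on. In macrophages NF-kB joins these factors after LPS, and the mRNAs are short-lived, so their levels usually fall again after a first peak. Egr1, Egr2 and Egr3 are zinc finger transcription factors, and Nr4a1 is an orphan nuclear receptor that restrains inflammatory genes in macrophages. Ier2 and Ier3 are early response proteins, of which Ier3 affects cell survival. Klf2, Klf4 and Klf6 are Krüppel-like zinc finger factors, of which Klf2 dampens and Klf6 promotes inflammatory gene expression in macrophages, while Klf4 is best known as a pluripotency factor. Myc is a transcription factor that drives ribosome production and growth.

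Egr3 had 3 probes, Ier2 and Myc had 2 each, and each of the other genes had 1. Probes of 1 gene were not all well above background, so the probes on which the Myc values turn are shown, as the array files give them (5′ to 3′, coordinates in mm9, plus strand). The Myc probe that stands for the gene, A_52_P108346, lies at chr15:61821417-61821476, and the second Myc probe, A_52_P278549, at chr15:61820925-61820984.
Myc A_52_P108346: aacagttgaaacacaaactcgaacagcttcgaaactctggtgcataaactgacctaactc
Myc A_52_P278549: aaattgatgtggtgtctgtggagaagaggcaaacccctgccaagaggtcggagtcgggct

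Promoter windows of 6 of the 10 genes were read from the RefSeq table of build GRCm38.p6, each running from 250 bases before to 50 bases after an annotated start. The 4 windows below belong to a gene that was lower in knockout cells under both conditions (Egr2), to the gene with the largest measured difference in LPS response between genotypes (Nr4a1), to a gene with a large LPS response (Ier3) and to a gene with less RNA after LPS (Klf4). The letters were searched on both strands, and matches are in capitals. The Egr2 window, chr10:67537619-67537918 on the plus strand, holds a CArG box, the element bound by serum response factor, at -72 to -63 from the start. The Nr4a1 window, chr15:101266596-101266895 on the plus strand, holds an Egr site (GCGTGGGCG or GCGGGGGCG) on the opposite strand at -60 to -52 and an NF-kB site at -3 to 7. The Ier3 window, chr17:35821463-35821762 on the plus strand, holds an NF-kB site at -92 to -83. The Klf4 window, chr4:55532426-55532725 on the minus strand, holds an Egr site at -194 to -186 and an E-box (CACGTG), the element bound by Myc and its partner Max, at -182 to -177.
Egr2: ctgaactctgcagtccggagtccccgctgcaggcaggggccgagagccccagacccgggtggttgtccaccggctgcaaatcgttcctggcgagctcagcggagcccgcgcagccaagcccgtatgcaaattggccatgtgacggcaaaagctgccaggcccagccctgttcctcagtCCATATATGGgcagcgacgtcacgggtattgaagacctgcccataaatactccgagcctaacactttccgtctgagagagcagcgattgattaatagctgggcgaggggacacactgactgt
Nr4a1: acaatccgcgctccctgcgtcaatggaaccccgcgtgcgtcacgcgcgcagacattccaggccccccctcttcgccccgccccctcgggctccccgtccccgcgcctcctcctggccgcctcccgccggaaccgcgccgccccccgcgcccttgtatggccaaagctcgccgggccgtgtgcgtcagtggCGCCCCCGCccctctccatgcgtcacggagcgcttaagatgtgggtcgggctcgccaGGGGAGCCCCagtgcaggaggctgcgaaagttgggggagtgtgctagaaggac
Ier3: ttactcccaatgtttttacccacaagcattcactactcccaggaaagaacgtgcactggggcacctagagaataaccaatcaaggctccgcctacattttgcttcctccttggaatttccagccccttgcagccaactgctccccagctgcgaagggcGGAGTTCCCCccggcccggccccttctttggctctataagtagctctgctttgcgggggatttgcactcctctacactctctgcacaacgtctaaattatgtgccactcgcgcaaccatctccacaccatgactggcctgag
Klf4: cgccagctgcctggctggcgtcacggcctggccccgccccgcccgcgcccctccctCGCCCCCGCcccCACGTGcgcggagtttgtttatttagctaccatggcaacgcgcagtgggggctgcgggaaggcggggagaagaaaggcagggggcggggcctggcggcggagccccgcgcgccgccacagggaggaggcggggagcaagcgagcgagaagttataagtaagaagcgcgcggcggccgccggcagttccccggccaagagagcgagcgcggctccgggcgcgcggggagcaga

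Of the others, the Klf2 window (chr8:72318812-72319111) holds an Egr site at -199 to -191, and the Klf6 window (chr13:5861239-5861538) an E-box at -43 to -38. Egr2 has 5 windows in the table, of which 4 hold a CArG box, 3 of them overlapping and sharing the one shown, and the remaining window holds an E-box. Egr3, Ier2 and Myc have no entry, and Egr1 was left out of the search. Over all 32851 windows of the table, 1.63% held a CArG box, 3.47% an Egr site, 4.51% an NF-kB site and 7.15% an E-box. Some letters did not occur in the windows of the 6 genes searched. These were the cyclic AMP response element (TGACGTCA, in 1.79% of all windows) and the AP-1 site (TGANTCA, 7.81%). The ETS core (CCGGAAGT, 3.89%) and the TATA box (TATAAA, 13.6%) did not occur there either. The E-box and the CArG box shown read the same on both strands, and no match overlapped another. The CArG box of the Egr2 window that does not share it matched on both strands with different letters. A match describes the letters and says nothing of binding.

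All 10 macrophage markers examined, Csf1r, Adgre1, Cd68 and Spi1 among them, were well above background on all 4 arrays. Their summed intensity was 399522 in knockout cells with LPS, 450280 in wild type cells with LPS, 453792 in untreated knockout cells and 432540 in untreated wild type cells. Of other cell types, 5 of 6 fibroblast and 4 of 5 epithelial markers were well above background on none of the arrays. The T cell markers Cd3e and Cd4 and the neutrophil marker Elane were above it on all 4, with a summed T cell list of 717 to 757. Above it on no array were 2 of 5 T cell, 3 of 5 neutrophil and 2 of 5 B cell markers. The B cell markers Ms4a1, Cd79b and Pax5 were above it on at least 1 array, but none of them on all 4. Hsd17b4 itself had an intensity of 1217 in knockout cells with LPS, 2915 in wild type cells with LPS, 2545 in untreated knockout cells and 4482 in untreated wild type cells. Scaled, knockout minus wild type was -1.17 with LPS and -0.86 untreated. The sources used here do not say which stretch was deleted, so this signal does not check the labels. All 4 arrays lay on 1 slide, on which position cannot be told apart from the group. On each array 59305 spots were not controls, of which 47.4% to 49.7% stood well above background and 0 were saturated.

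Every level below is log2 of the spot's processed intensity minus the 75th percentile of its own array, so 0 means as bright as that percentile. Levels of different probes are not comparable with each other, and only the same probe is compared between arrays. The program that read the scans gives an error for each spot, called the spot error here. It came to about 0.204 on the log2 scale for a difference between 2 arrays at bright probes, and 0.289 for a difference of differences. It covers the measurement of a spot, not the spread between cultures. For probes printed on several spots of 1 array, the median standard deviation between spots was 0.0369 to 0.0763 per array, at a median intensity of 68806 to 75702. A gene is called higher or lower where the difference was at least 2-fold, that is 1 on the log2 scale. Where only 1 of the arrays was well above background, the fold is a bound. It was computed against the dim spot's signal or, if higher, the dimmest signal rated well above background on the same array. Such a bound, written with at least, holds for this processing and is not a strict limit, because it moves with the background correction and the probe. The Egr3 spot of knockout cells with LPS (21.3) was above that dimmest signal (19.7), so there the bound is the plain difference of the signals.

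**Figure D1:**
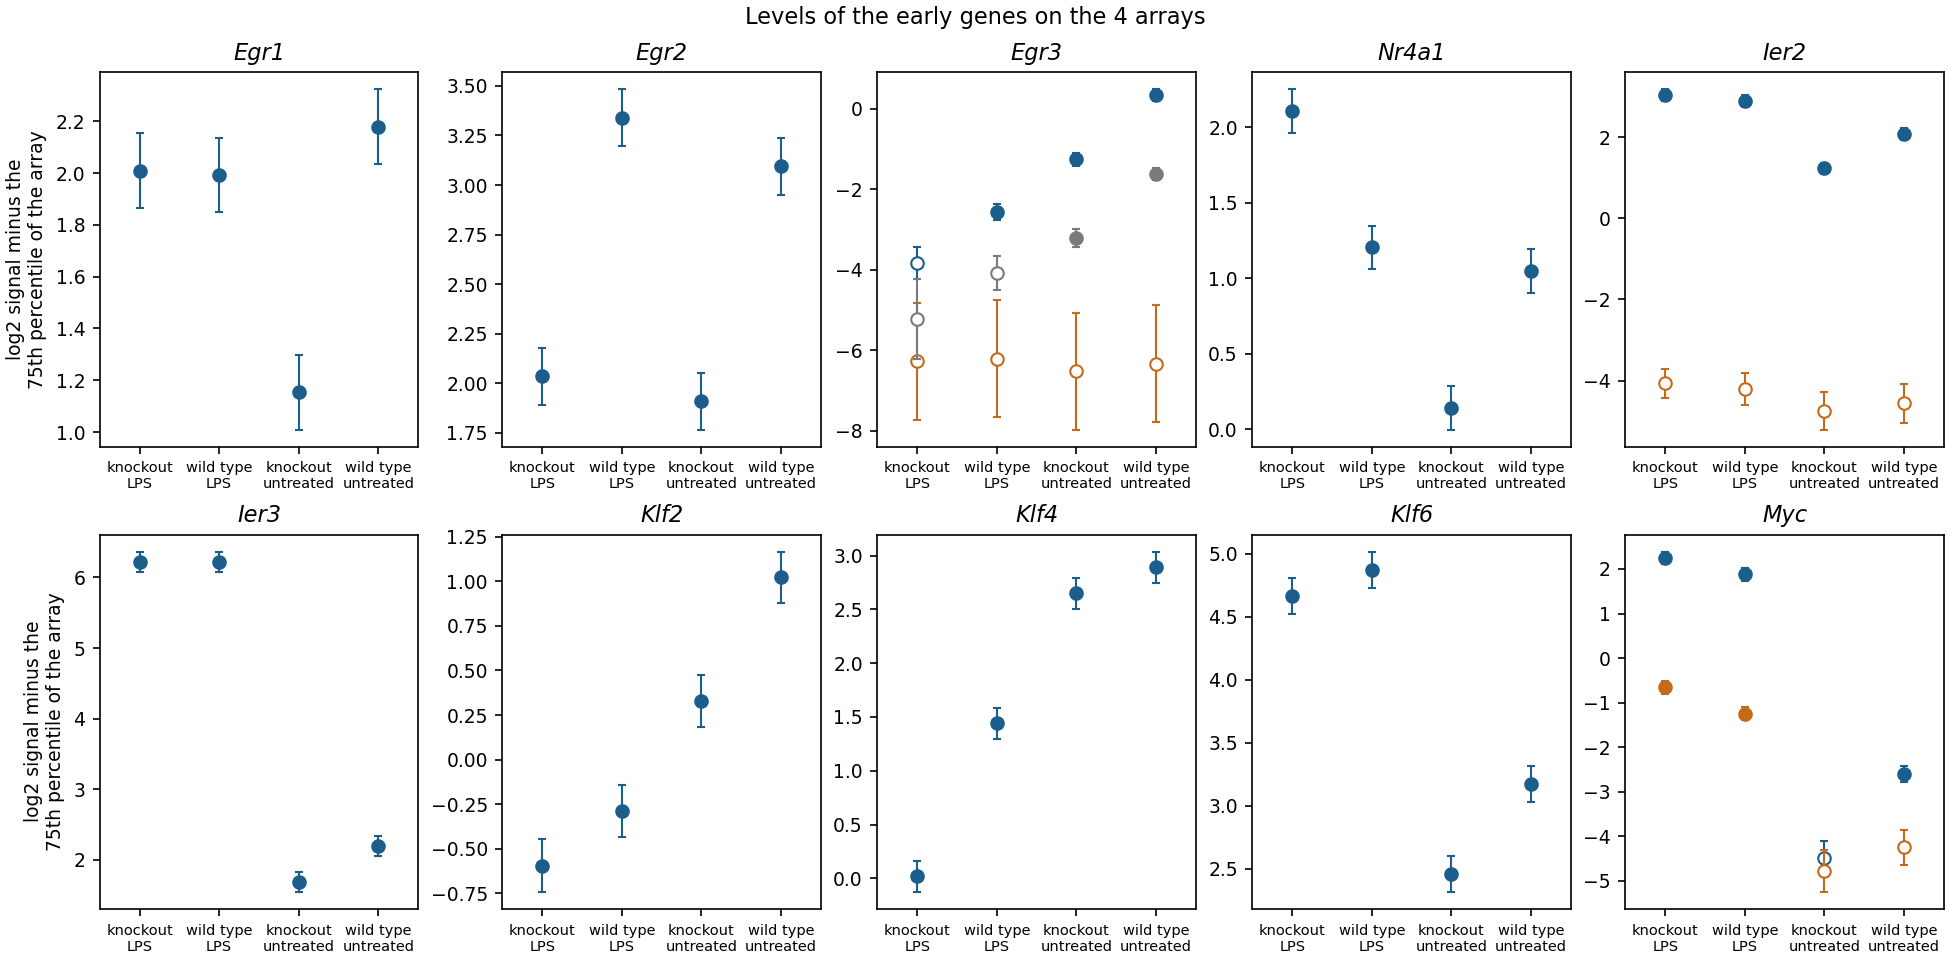
Level of each early gene on the 4 arrays (y axis, log2 intensity minus the array's 75th percentile, a scale of its own in each panel), with knockout left of wild type and LPS left of untreated. Blue points are the probe that stands for the gene, orange and grey points its other probes, filled points were well above background, open points were not, and bars are the spot error. Ier3, Klf6 and Myc sit higher on both LPS arrays, and Klf2, Klf4 and Egr3 sit lower on both.

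LPS was accompanied by much more Ier3, Klf6 and Myc RNA and by less Egr3 and Klf4 RNA in both genotypes, while Klf2 was 2-fold lower in wild type cells and stood at -0.92 in knockout cells. In knockout cells Ier3 was 23.1-fold and Klf6 4.61-fold higher with LPS, while in wild type cells the folds were 16.2 and 3.26. Myc was 22.4-fold higher in wild type cells, and in knockout cells its bound was 86.9-fold, or 6.44 on the log2 scale. With normexp background correction the Myc values were 4.42 in knockout and 3.49 in wild type cells on that scale. With LPS, Nr4a1 (1.97) and Ier2 (1.81) were at least 2-fold higher in knockout cells. In wild type cells both were short of 2-fold, Nr4a1 at 0.16 and Ier2 at 0.81. The share of all genes called in knockout cells alone was not counted. In knockout cells 5 of the 10 genes were higher and 2 lower with LPS, against 11.0% and 12.4% of 18405 genes tested, and the median of the 10 was 1.33 against 0.00 for all genes. In wild type cells 3 of the 10 were higher and 3 lower, against 9.71% and 8.56% of 18215 genes, with a median of 0.20 against 0.01. Below 0 were 3 of the 10 in knockout cells, against 49.2% of all genes, and 4 of the 10 in wild type cells, against 49.0%. The measure was made on bulk RNA, so fewer cells with a transcript and less of it per cell cannot be told apart. The 4 arrays are shared between the comparisons, so the values of the 2 genotypes and of the 2 conditions are given side by side and are not independent of each other.

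**Figure D2:**
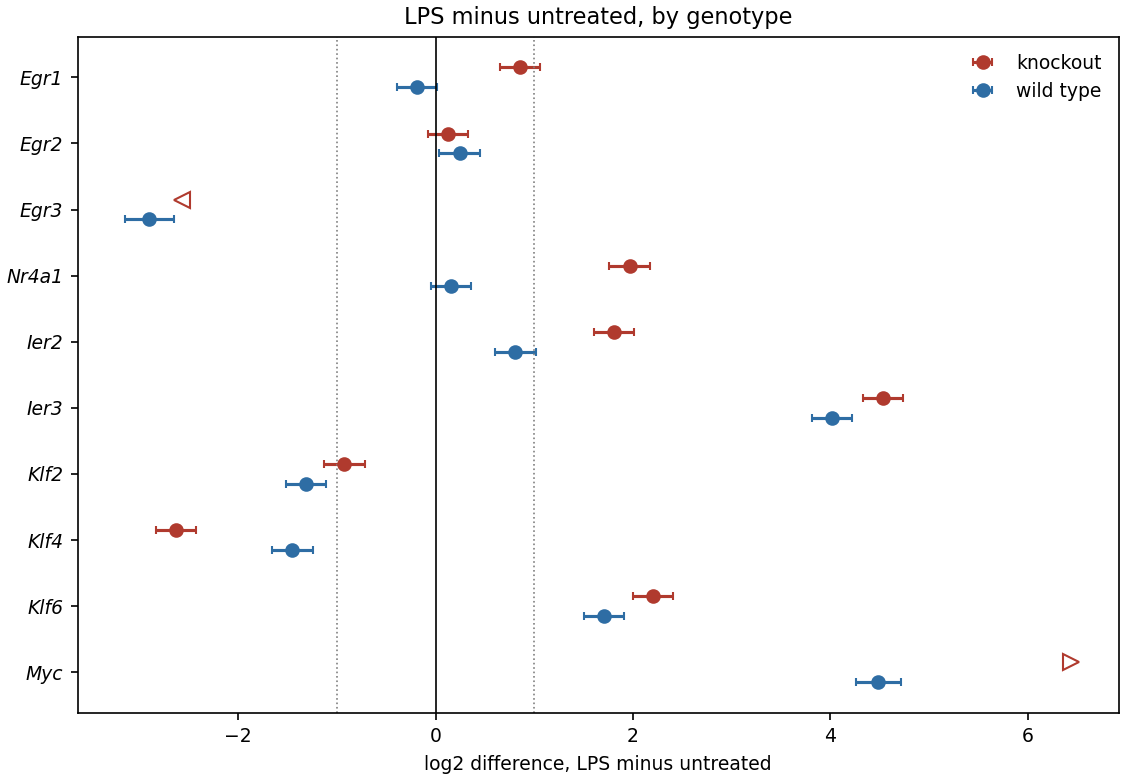
LPS minus untreated on the log2 scale (x axis) for each gene, in knockout (red) and wild type cells (blue). Bars are the spot error of the difference, triangles are bounds and point away from 0, and dotted lines mark 2-fold. Nr4a1 stands at 1.97 in knockout and 0.16 in wild type cells, and Klf4 at -2.63 and -1.45.

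Without LPS, knockout cells had at least 2-fold less RNA of Egr1, Egr2, Egr3 and Myc than wild type cells. These 4 of the 10 were lower and 0 were higher, against 3.91% and 3.08% of 18419 genes tested. The median of the 10 was -0.88, against 0.05 for all genes. The other 6 were within 2-fold, and the values of all 10 were below 0, against 40.9% of all genes. The difference was smallest for Klf4 (-0.25, which is 1.21 times its spot error) and Ier3 (-0.51) and largest for Egr3 (-1.60) and Myc (at least 3.01-fold lower). All 10 stayed below 0 when the arrays were scaled by quantiles, by the median or by spike-in RNA, and when the authors' deposited series table was used.

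With LPS, most of these differences between genotypes were smaller. In knockout cells Egr2, Egr3 and Klf4 were at least 2-fold lower and 0 of the 10 were higher, against 4.37% and 1.85% of 17742 genes. The median of the 10 was -0.10, against 0.04 for all genes, and 5 of the 10 were below 0, against 44.2% of all genes. The count below 0 was 7 with quantile normalization, with spike-in centring and in the deposited table, and 6 with normexp. With median centring the median was 0.06, against 0.21 for all genes. Egr1 (0.02), Ier3 (0.00) and Ier2 (0.15) differed between the genotypes by less than the spot error, and their sign turned with the scaling or the background correction. Nr4a1, lower in untreated knockout cells by 0.91, was higher in knockout cells with LPS by 0.90.

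**Figure D3:**
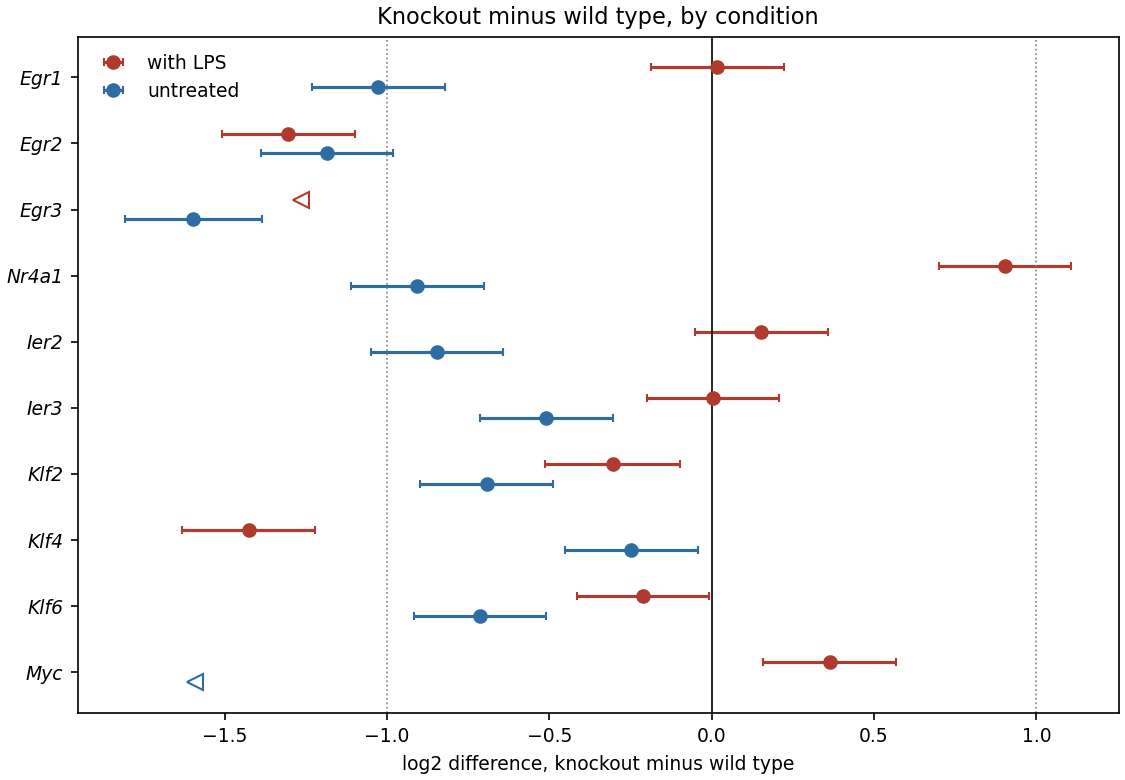
Knockout minus wild type on the log2 scale (x axis) for each gene, with LPS (red) and untreated (blue). Bars are the spot error of the difference, triangles are bounds and point away from 0, and dotted lines mark 2-fold. All 10 blue values lie below 0, and the red values lie on both sides of it.

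Egr1, a first-line target of ERK signalling, had a level of 2.01 in knockout cells with LPS, 1.99 in wild type cells with LPS, 1.15 in untreated knockout cells and 2.18 in untreated wild type cells. The untreated knockout array stood apart as low, and the other arrays lay within about the spot error of each other. The difference between LPS and untreated was 0.86 in knockout cells and -0.19 in wild type cells, the second of them smaller than the spot error. Untreated knockout cells were 2.04-fold below untreated wild type cells, which places Egr1 at the 3.79th percentile of all genes in that comparison. Its 2-fold call there rests on a small margin and was lost with median centring (-0.98) and with normexp background correction (-0.96).

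Egr2, which takes part in macrophage differentiation, had a level of 2.04 in knockout cells with LPS, 3.34 in wild type cells with LPS, 1.91 in untreated knockout cells and 3.10 in untreated wild type cells. Both knockout arrays were low and both wild type arrays high, whether or not LPS was given. Knockout minus wild type was -1.30 with LPS and -1.19 untreated, which is 2.47-fold and 2.27-fold lower in knockout cells. The LPS response was 0.13 in knockout cells and 0.24 in wild type cells, close to the spot error in each. Of the 10 genes, Egr2 was the one whose values grouped by genotype and not by LPS.

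Egr3, a relative of Egr2 induced by many of the same stimuli, had a level of -3.83 in knockout cells with LPS, where it was not well above background, -2.57 in wild type cells with LPS, -1.26 in untreated knockout cells and 0.33 in untreated wild type cells. It was low after LPS in each genotype and lower in knockout than in wild type cells in each condition. With LPS it was at least 5.93-fold lower in knockout cells and 7.46-fold lower in wild type cells. Knockout cells were at least 2.41-fold below wild type cells with LPS and 3.02-fold below them untreated. That genotype difference with LPS was a bound of -0.36 with normexp background correction, and the call was lost there. The stricter filter on dim probes leaves this difference out. Over the mean of the probes the call was lost too, with a bound of 0.00. The mean of the wild type probes lay below the dimmest signal that was rated well above background in knockout cells. The bound was therefore cut off at 0 and says nothing of equal levels. The LPS response of knockout cells was -1.09 with normexp and -0.28 over the mean of the probes, both of them bounds. Its call was lost over the mean, and the stricter filter leaves this response out. The LPS response of wild type cells was -2.03 with normexp and -1.74 over the mean. A second Egr3 probe, A_52_P440836, was well above background on the untreated arrays alone, at -3.20 in knockout and -1.62 in wild type cells, a difference of -1.58. The third probe was not well above background on any array.

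Nr4a1 had a level of 2.11 in knockout cells with LPS, 1.20 in wild type cells with LPS, 0.14 in untreated knockout cells and 1.05 in untreated wild type cells. The wild type arrays did not differ beyond the spot error, and the knockout arrays lay on either side of them, high with LPS and low without. The LPS response was 1.97 (3.91-fold) in knockout cells and 0.16 in wild type cells. Their difference, 1.81 with a spot error of 0.289, lay at the 99.7th percentile of 15538 genes well above background on all 4 arrays.

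Ier2, a nuclear early response protein, had a level of 3.03 in knockout cells with LPS, 2.88 in wild type cells with LPS, 1.23 in untreated knockout cells and 2.07 in untreated wild type cells. The LPS arrays were high and alike, and the untreated knockout array was the lowest. The LPS response was 1.81 (3.50-fold) in knockout cells and 0.81 (1.75-fold) in wild type cells. Only 35 of the 60 bases of this probe have a place in the coordinates of the files, and the second Ier2 probe was not well above background on any array.

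Ier3 had an intensity of 22656 in knockout cells with LPS, 24027 in wild type cells with LPS, 1194 in untreated knockout cells and 1646 in untreated wild type cells. On the scaled log2 values the LPS arrays were level at 6.22 each, and the untreated ones lay at 1.69 in knockout and 2.20 in wild type cells. The LPS response of 4.53 in knockout and 4.02 in wild type cells was at the 99.4th percentile of all genes in each genotype. The larger response of knockout cells came with their lower untreated level.

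Klf2 had a level of -0.59 in knockout cells with LPS, -0.29 in wild type cells with LPS, 0.33 in untreated knockout cells and 1.02 in untreated wild type cells. The LPS arrays were low, the untreated wild type array was the highest, and the LPS arrays differed from each other by 1.46 times the spot error. LPS minus untreated was -0.92 in knockout cells, short of 2-fold, and -1.31 in wild type cells. With spike-in centring the knockout value was -1.16 and passed 2-fold.

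Klf4 had a level of 0.02 in knockout cells with LPS, 1.44 in wild type cells with LPS, 2.65 in untreated knockout cells and 2.89 in untreated wild type cells. The untreated arrays were close to each other, and the knockout array with LPS was far below the rest. LPS minus untreated was -2.63 (6.19-fold lower) in knockout cells and -1.45 (2.73-fold lower) in wild type cells. Klf4 was the gene of the 10 whose LPS response was the more negative in knockout cells by at least 2-fold, with a difference of -1.18, at the 1.89th percentile of all genes. That difference was -0.96 with normexp background correction.

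Klf6 had a level of 4.66 in knockout cells with LPS, 4.87 in wild type cells with LPS, 2.46 in untreated knockout cells and 3.17 in untreated wild type cells. Both LPS arrays were high, and they differed from each other by about the spot error. The LPS response was 2.21 in knockout cells and 1.70 in wild type cells. So of the Klf genes, Klf6 was higher and Klf4 was lower with LPS in each genotype, and Klf2 was lower in wild type cells.

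Myc, on the probe that stands for the gene, had an intensity of 1442 in knockout cells with LPS, 1192 in wild type cells with LPS, 16.6 in untreated knockout cells and 59.0 in untreated wild type cells. The scaled log2 level was 2.25 in knockout cells with LPS, 1.89 in wild type cells with LPS, -4.48 in untreated knockout cells and -2.60 in untreated wild type cells, and the untreated knockout spot was not well above background. Both LPS arrays were far above both untreated ones. The LPS response was at least 86.9-fold in knockout cells, the 99.8th percentile of all genes, and 22.4-fold in wild type cells, the 99.6th. With normexp background correction the log2 response was 4.42 in knockout and 3.49 in wild type cells, and over the mean of both probes 4.99 and 3.74. The knockout values of both are bounds. The stricter filter on dim probes leaves the knockout response out. The second Myc probe was well above background on the LPS arrays alone, at -0.66 in knockout and -1.25 in wild type cells. On that probe the LPS response was at least 11.6-fold in knockout cells and at least 6.74-fold in wild type cells. Knockout minus wild type with LPS was 0.36 on the first probe and 0.59 on the second, and untreated it was a bound, from the first probe alone. That bound, -1.59 on the log2 scale, was -0.55 with normexp background correction and -0.77 over the mean of both probes, and passed 2-fold in neither. Over the mean it was limited by the dimmest signal rated well above background, not by the signal of the probes.

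The LPS response of knockout cells minus that of wild type cells could be computed for 8 of the 10 genes, those well above background on all 4 arrays. It was at least 2-fold higher for Nr4a1 (1.81) and Egr1 (1.04) and at least 2-fold lower for Klf4 (-1.18), against 1.69% higher and 2.92% lower among 15538 genes. With normexp background correction the Egr1 value was 0.98 and passed no longer. Ier2, at 0.998, lay just inside the threshold, and passed it with median centring (1.12). The remaining values were 0.51 for Ier3, 0.50 for Klf6, 0.39 for Klf2 and -0.12 for Egr2. The median of the 8 was 0.51, against 0.00 for all genes, and 2 of the 8 were below 0, against 49.6% of all genes.

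A model with additive terms for genotype and LPS was fitted with limma over 17382 genes well above background on at least 2 arrays. It has 1 residual degree of freedom, which is the difference of the LPS responses, so that difference is counted as noise. For Egr3 and Myc it used the measured signal of the array that was not well above background. Its LPS term had a limma adjusted p below 0.05 for 6 of the 10 genes, higher for 3 and lower for 3, against 11.2% of all genes higher and 11.3% lower. The higher ones were Myc (5.61 ± 0.65, SE, limma adjusted p = 0.0319), Ier3 (4.28 ± 0.19, limma adjusted p = 0.0241) and Klf6 (1.95 ± 0.19, limma adjusted p = 0.0289). The lower ones were Egr3 (-2.73 ± 0.15, limma adjusted p = 0.0241), Klf4 (-2.04 ± 0.36, limma adjusted p = 0.0478) and Klf2 (-1.12 ± 0.16, limma adjusted p = 0.0383). Ier2 (1.31, limma adjusted p = 0.0724), Nr4a1 (1.06, limma adjusted p = 0.223), Egr1 (0.34) and Egr2 (0.18) did not pass. Ier2 passed with a trended prior (limma adjusted p = 0.0249), among genes above background on all 4 arrays (limma adjusted p = 0.0385) and with normexp (limma adjusted p = 0.0242). The genotype term passed for 0 of the 10 and 0% of all genes in limma, while 1709 genes had an unadjusted p below 0.05. The smallest limma adjusted p of the 10 for genotype were those of Egr2 (-1.24 ± 0.13, 0.181) and Egr3 (-1.43 ± 0.15, 0.19).

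The genes whose profile over the 4 arrays was nearest to each member were found by Euclidean distance between log2 levels centred on their own mean, among 3311 genes with a range of at least 1. Nearest to Egr2 was Eif5a (distance 0.10), which encodes a translation factor, followed by H2-Eb1 (0.15), an MHC class II gene. Nearest to Ier2 were Kcnab1 (0.12) and Slc4a7 (0.15), to Klf6 Jdp2 (0.15) and Coq10b (0.15), and to Klf4 Adarb1 (0.14) and Tmem158 (0.24). Jdp2 encodes an AP-1 family repressor. Klf2 was nearest to Cped1 (0.16) and Them6 (0.17), Egr1 to Gnb4 (0.22) and Serpinb6d (0.23), Ier3 to Fam214b (0.27) and Gch1 (0.32), and Nr4a1 to Lamc1 (0.31) and Spag1 (0.33). With 4 points a profile, these distances are a description of these arrays.

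Of the other immediate early genes, 8 were at least 2-fold lower in untreated knockout cells. Of 25 on the list, which holds Fos and Jun family members and others but none of the 10, 23 could be compared. Besides these 8 (6 with normexp background correction), 0 were higher and 22 had values below 0, with a median of -0.70. Of all genes 3.91% were lower and 40.9% below 0. The largest differences were those of Plk2, a stress-induced kinase (-3.27), Fosl1, an AP-1 subunit (-3.01), and Fos (-1.82). With LPS the same list had a knockout minus wild type median of 0.21, with 1 gene higher (Nfil3, 1.02) and 2 lower (Rhob, -2.20, and Ier5l, -1.10). Of all genes 1.85% were higher and 4.37% lower there. LPS minus untreated was at least 2-fold higher for 19 of 23 and lower for 1 in knockout cells (median 1.89, with 11.0% of all genes higher and 12.4% lower), led by Plk2 (6.03), Fosl1 (6.01) and Plk3 (4.90). It was higher for 15 and lower for 2 in wild type cells (median 1.34, with 9.71% of all genes higher and 8.56% lower), led by Gadd45b (3.42), Maff (3.22) and Plk3 (3.20). The response of knockout cells exceeded that of wild type cells by at least 2-fold for 10 of 21 genes and fell short of it for 1, with a median difference of 0.95. Of all genes 1.69% were higher and 2.92% lower.

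Genes of ERK feedback and output, which are transcribed when ERK is active and in part restrain it, were lower in untreated knockout cells for 4 of the 10 that could be compared, higher for 0 and below 0 for 8, with a median of -0.59. Of all genes 3.91% were lower and 40.9% below 0. The largest differences were those of the ERK phosphatase Dusp5 (-2.17), the ETS factor Etv4 (-1.89) and the phosphatase Dusp4 (-1.69). With LPS, 2 were lower and 0 higher in knockout cells (Etv4, -1.41, and Dusp5, -1.16), against 4.37% and 1.85% of all genes, with a median of -0.29. LPS minus untreated was higher for 5 of 10 and lower for 1 in knockout cells, against 11.0% and 12.4% of all genes, and higher for 5 and lower for 0 in wild type cells, against 9.71% and 8.56%, with Phlda1 at 6.35 in knockout and 4.15 in wild type cells and Dusp5 at 4.96 and 3.95. Of 19 genes of the serum response factor and ERK pathway, 1 was lower in untreated knockout cells, the ETS factor Elk1 (-2.24), and 0 were higher. Their median was 0.04, and 3.91% of all genes were lower and 3.08% higher. Elk1 had a level of 6.61 in untreated knockout cells and between 8.85 and 8.98 on the other arrays. Srf, the serum response factor gene, which was singled out after its values were seen, differed between the genotypes by -0.01 in each condition and was lower with LPS by 1.04 in each.

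**Figure D4:**
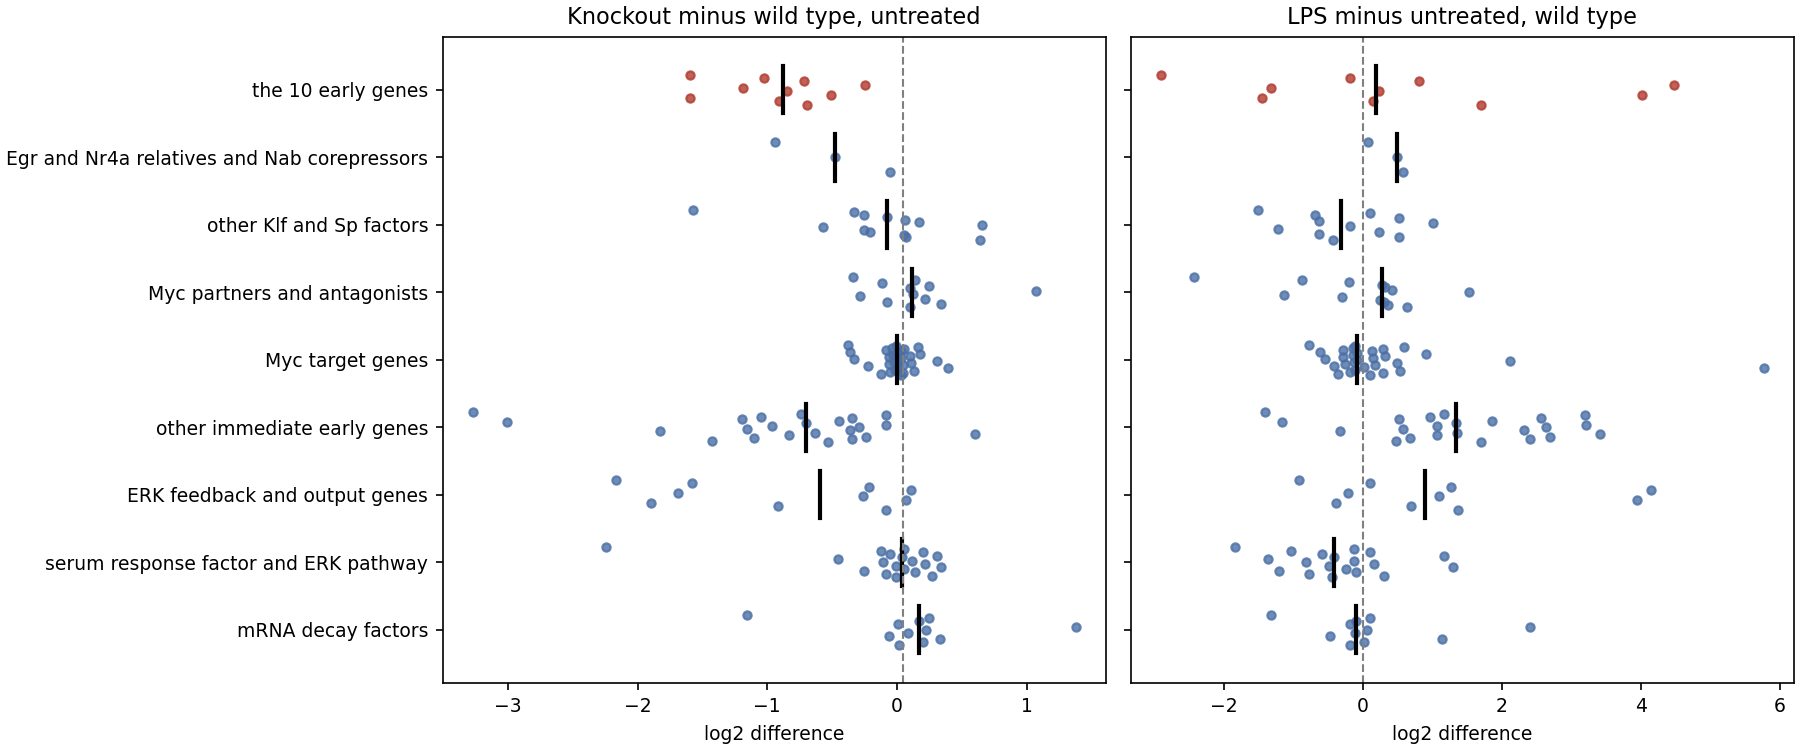
Log2 differences (x axis) of the 10 early genes (red) and of the 8 related lists (blue), for untreated knockout minus untreated wild type cells (left) and for LPS minus untreated in wild type cells (right). Each point is a gene that could be compared, bounds are plotted at the bound, thick black lines are list medians, and the dashed line is the median of all genes. On the left the medians of the 10 genes (-0.88), the other immediate early genes (-0.70) and the ERK feedback genes (-0.59) lie lowest.

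Of 6 close relatives and corepressors of the Egr and Nr4a genes 3 could be compared, and none was 2-fold higher or lower in any comparison. Among all genes the share called in a direction ran from 1.69% to 12.4%, so 0 of 3 is near that share. With median centring 1 was higher with LPS in knockout cells. In untreated knockout cells Nr4a2, the nearest relative of Nr4a1, was lower by 0.94, and Nab2, a corepressor of Egr proteins, by 0.48, while Nr4a3 stood at -0.06. The other Klf and Sp factors had 1 of 13 genes lower in untreated knockout cells (Klf3, -1.57), against 3.91% of all genes. With LPS 2 of 11 were lower in knockout cells (Klf10, -1.64, and Klf3, -1.62), against 4.37%. Klf10, a TGF-beta-induced repressor, was lower with LPS by 3.21 in knockout cells and by 1.51 in wild type cells, the same order as Klf4.

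Of 30 Myc target genes, mostly of ribosome production and nucleotide synthesis, 5 were at least 2-fold higher with LPS in knockout cells (median 0.27) and 2 in wild type cells (median -0.08), against 11.0% and 9.71% of all genes. In each genotype 0 were lower, against 12.4% of all genes in knockout and 8.56% in wild type cells. The largest LPS responses were those of Ccnd2, a G1 cyclin (4.97 in knockout and at least 5.77 in wild type cells), and Odc1, the first enzyme of polyamine synthesis (2.42 and 2.12). The median in knockout cells was 0.04 with spike-in centring. Between the genotypes 0 of 30 were 2-fold different in either condition. Their median was 0.25 with LPS and 0.00 untreated, against 0.04 and 0.05 for all genes. With quantile normalization the untreated median was -0.05, against 0.02 for all genes. Of all genes 1.85% were higher and 4.37% lower with LPS, and 3.08% and 3.91% untreated. The response of knockout cells minus that of wild type cells was below 0 for 1 of 29 targets, against 49.6% of all genes, with a median of 0.25. At 2-fold it was 0 of 29, against 1.69% of all genes higher and 2.92% lower. Of the partners and antagonists of Myc, 1 of 12 was higher with LPS in knockout cells (Mlx, 1.25) and 3 were lower, against 11.0% and 12.4% of all genes. In wild type cells 1 of 13 was higher (Mxd1, 1.53) and 2 were lower, against 9.71% and 8.56%. The largest LPS differences were those of the antagonist Mxd3, at least 5.19-fold lower in knockout cells and at least 5.35-fold lower in wild type cells, and Mxi1 stood at -1.87 and -1.13. In untreated knockout cells 1 of 12 was higher (Mxd4, 1.07) and 0 lower, against 3.08% and 3.91% of all genes. With LPS 1 of 12 was lower in knockout cells (Mxd1, -2.01) and 0 higher, against 4.37% and 1.85%.

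Factors that act on the life of mRNAs were compared because early transcripts turn over fast. Of 11, 1 was higher in untreated knockout cells (Zfp36l1, 1.38) and 1 lower (Zfp36, -1.16, which is also on the immediate early list), against 3.08% and 3.91% of all genes. Their median was 0.17. With LPS, 0 of 11 were 2-fold different between the genotypes, with a median of 0.27, while 1.85% of all genes were higher and 4.37% lower. Zfp36, which targets AU-rich mRNAs for decay, was higher with LPS by 3.85 in knockout cells and by 2.41 in wild type cells. Whether these levels bear on the early genes was not tested.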

How the data were processed

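Total RNA of 4 cultures, 1 per group, was hybridised to 1-colour Agilent arrays. The deposited scanner files hold spot intensity, background-subtracted and detrended within an array. The file headers name Agilent Feature Extraction 10.7.1.1 as the program, and the submitters' processing notes name version 9.5.1.1. The deposited series table also holds intensity: a quantile normalization of these signals came within 0.01 log2 of it for 52837 to 52973 of 56601 probes per array. It served as an alternative, and its scaling was not stated.

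Control and outlier spots were left out, spots of a probe averaged, and log2 intensity was taken minus each array's 75th percentile over probes, 303 to 370 before log2. The probe well above background on the most arrays, then the brightest, stood for a gene. Single arrays were compared without a test, by a 2-fold rule. An additive fit used limma 3.58.1 (lmFit and eBayes, R 4.3.3) with Benjamini-Hochberg adjustment. Named besides the 10 genes were the 2 nearest profiles and up to 3 genes with the largest difference in each list and comparison. Srf was named outside this rule. The genes, lists and tests were chosen with earlier results of these data known. Alternatives were normexp background correction (offset 50), quantile, median and spike-in scaling (7 probes), the deposited table, no or a stricter filter on dim probes, the mean over probes, and folds of 1.5 and 4. Promoter windows came from the RefSeq table of GRCm38.p6, probe positions from the files (mm9). The number of arrays limits the precision.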

Additional observations from a re-analysis of the deposited data

Results flagged for a closer look

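Egr1 had LPS responses of opposite sign in the 2 genotypes, 0.86 in knockout cells and -0.19 in wild type cells on the log2 scale, a difference of 1.04. Its level was 2.01 in knockout cells with LPS, 1.99 in wild type cells with LPS, 1.15 in untreated knockout cells and 2.18 in untreated wild type cells. With 1 array a group the difference was not tested, and the wild type response was smaller than the spot error of 0.204.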

How the results depend on the processing

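The 10 genes gave 288 values under other scalings, another background correction, the deposited table or the mean over probes. Among them 0 calls reversed, 252 values moved by less than their spot error and 36 by more. Not all 288 were free to move. The mean over probes leaves a gene with 1 probe unchanged, and the deposited table nearly repeats the quantile normalization. With spike-in centring the small LPS responses of Egr2 in knockout cells (-0.11) and Nr4a1 in wild type cells (-0.06) lay below 0. Knockout minus wild type with LPS lay below 0 for Egr1 (-0.04) and Ier3 (-0.05) with spike-in centring, and for Ier2 (-0.02) with normexp. Counts of the 10 genes moved as follows. In parentheses is the count over all genes under the same setting. With normexp background correction, untreated knockout cells had 2 genes lower (307 of 18419). There the difference of responses had 1 higher (144 of 15538) and 0 lower (232 of 15538). With median centring 1 gene was higher in knockout than in wild type cells with LPS (533 of 17742). The stricter filter on dim probes left 1 gene lower with LPS in knockout cells, of the 8 that could be compared (1790). That filter left Egr3 and Myc out of this comparison. The mean over probes left 1 of 10 lower there (1956). The number of all genes compared under these 2 settings is not given here. At 1.5-fold, 8 genes were lower in untreated knockout cells (1378 of 18419) and 1 was higher in knockout than in wild type cells with LPS (1108 of 17742). At 4-fold, LPS left 3 genes higher in knockout cells (639 of 18405) and 1 lower in wild type cells (273 of 18215). Lower in knockout than in wild type cells were 0 untreated (212 of 18419) and 0 with LPS (175 of 17742). The responses differed for 0 genes in either direction (39 higher and 35 lower of 15538). Over all genes, limma's LPS term called 1954 higher and 1957 lower, against 3252 and 3182 with a trended prior and 2982 and 3147 with normexp, and 3240 were lower with spike-in centring. Its genotype term called 23 higher and 62 lower with a trended prior, 14 and 43 with normexp, and 1 and 10 among genes above background on all 4 arrays. Spike-in centring moved the median LPS response of all genes to -0.22 in knockout and -0.20 in wild type cells, and median centring moved it to 0.13 in knockout cells and that of knockout minus wild type with LPS to 0.21. The causes were not tested. Normexp lowered the count of all genes lower in untreated knockout cells from 720 to 307, and without a filter on dim probes it was 2237. No paired analysis was possible because each group has 1 array, and for the same reason none could be left out.

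The values rest on 1 culture, 1 array and 1 spot a probe in each group, so the spread between cultures is unknown. Myc and Egr3 spots near background carry bounds, and their size depends on the background correction.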
